A study of Mus musculus with 4 samples.

Results

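The 9 genes described here build the MHC class II route of antigen presentation: Cd74, H2-Aa, H2-Ab1, H2-Eb1, H2-DMa, H2-DMb1, H2-DMb2, H2-Ob and Ciita. They were picked by gene name from a count table of 54532 genes, in which each name matched 1 row. All 9 were among the 15993 genes with enough counts to be tested. Their RNA was measured in Dll1-positive cells of mouse mammary tumors. The tumors grew in C57BL/6 mice after PyMT-Dll1+ cells were injected into the mammary fat pad. PyMT is the polyoma middle T oncogene under the MMTV promoter, which is active in mammary epithelium, and mCherry reports Dll1, a Notch ligand. The 2 unirradiated libraries came from tumors with no radiation, and the 2 irradiated libraries from tumors with targeted radiation at day 30. All 4 libraries share strain, oncogene, reporter and sort: tumor cells were enriched from digests by staining for CD45, CD31 and TER119, and the mCherry-positive ones were collected. Whether the replicate libraries came from different mice is not stated in the labels, so p-values speak only of the spread among these 4 libraries and that spread may be technical.

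Class II molecules show peptides from endosomes to CD4 T cells. An alpha and a beta chain pair in the endoplasmic reticulum around the invariant chain, encoded by Cd74, which guides them to the endosome. There proteases cut the invariant chain down to a fragment called CLIP, H2-DM exchanges CLIP for other peptides, and H2-O holds H2-DM back. Dendritic cells, macrophages and B cells make these proteins all the time, while epithelial cells can switch them on when interferon gamma induces the coactivator CIITA.

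CIITA binds no DNA itself and is recruited by factors sitting on the X and Y boxes of class II promoters. Promoter windows of 300 bases from RefSeq (GRCm38.p6, 250 before to 50 after the start site) were used for 6 of the 9 genes. None was used for Cd74, H2-Ab1 and Ciita, so the boxes of their promoters are not described. Their absence here does not mean that these genes have no window. An X box core was searched as AACNGATG and a Y box as ATTGG, on both strands; these letters do not overlap each other. The core lay in 2.32% of all 32851 windows and the Y box in 37.4%. A core followed on the same strand by a Y box, with starts 25 to 40 bases apart, lay in 6 windows, 0.018% of all. They included those of H2-Eb1, H2-DMb1, H2-DMb2 and H2-Eb2, a class II beta gene outside the 9. The letters and the spacing were chosen after the windows of these genes had been seen, so the share is a description. Windows of 5 genes are shown from 150 to 21 bases before the start site, on the gene's own strand and with matches in capitals. They are shown because the results turn on how these genes differed, although H2-Eb1, H2-DMb1 and H2-DMb2 carry like boxes.
H2-Aa, minus strand, chr17:34287844-34287973: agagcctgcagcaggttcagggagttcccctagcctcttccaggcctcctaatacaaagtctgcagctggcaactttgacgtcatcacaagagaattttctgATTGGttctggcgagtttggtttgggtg
H2-Eb1, plus strand, chr17:34305717-34305846: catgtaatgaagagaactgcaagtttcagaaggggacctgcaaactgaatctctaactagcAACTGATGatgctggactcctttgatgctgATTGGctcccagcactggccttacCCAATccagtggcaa
H2-DMb1, plus strand, chr17:34153041-34153170: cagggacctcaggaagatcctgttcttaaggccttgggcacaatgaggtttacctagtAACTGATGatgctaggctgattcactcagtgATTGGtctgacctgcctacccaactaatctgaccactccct
H2-DMb2, plus strand, chr17:34145099-34145228: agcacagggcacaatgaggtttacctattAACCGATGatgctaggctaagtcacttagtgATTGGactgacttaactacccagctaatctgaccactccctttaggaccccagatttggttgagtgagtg
H2-Ob, plus strand, chr17:34238755-34238884: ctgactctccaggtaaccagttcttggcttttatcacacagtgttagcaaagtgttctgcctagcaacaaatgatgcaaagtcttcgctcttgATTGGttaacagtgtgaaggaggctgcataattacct
The core and the Y box started 31 bases apart in H2-DMb1 and H2-DMb2 and 30 bases apart in H2-Eb1. The letters of the core were not found in the windows of H2-Aa and H2-Ob, which held a Y box, nor in either of the 2 windows of H2-DMa, of which 1 held a Y box. The H2-DMa windows end at 34122881 and 34125567, well before the start of the counted gene at 34135182. The promoter at that start was therefore not searched. The H2-DMb2 window, from 34144999 to 34145298, lies inside the counted gene, which starts at 34143307. For H2-DMb2, too, the promoter at the start of the counted gene was not searched.

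Library depth was 20817997 and 16811888 counts in unirradiated 1 and 2, and 19931303 and 18903631 in irradiated 1 and 2. The unirradiated libraries lay close together, with a biological coefficient of variation of 5.93% across genes, and the irradiated ones did not, with 39.8%. The first principal component (65.3% of the variance of log2 CPM) set irradiated 2 off from the other libraries, so each result below is also given without it or library by library. The luminal epithelial markers, 8 genes including Krt8 and Epcam, summed to 10270 and 9883 CPM without radiation and to 10689 and 8649 CPM in irradiated 1 and 2. Dll1 was at 130 and 129 CPM without radiation and at 146 and 80.2 CPM in the irradiated libraries.

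Class II RNA was scarce in the unirradiated cells, higher in irradiated 1 and far higher in irradiated 2. In CPM, the count scaled to library size with TMM factors, the 9 genes summed to 63.2 and 48.8 without radiation, 158 in irradiated 1 and 1885 in irradiated 2. For 7 of the 9 the lower irradiated library exceeded the higher unirradiated one, a pattern that 20.3% of all tested genes also had; for 0 of the 9 the order was the opposite, against 20.0% of all. H2-DMb1 and Ciita were the exceptions, with irradiated 1 at or under the unirradiated level. In bulk RNA, more cells of a type and more RNA per cell cannot be told apart.

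**Figure D1:**
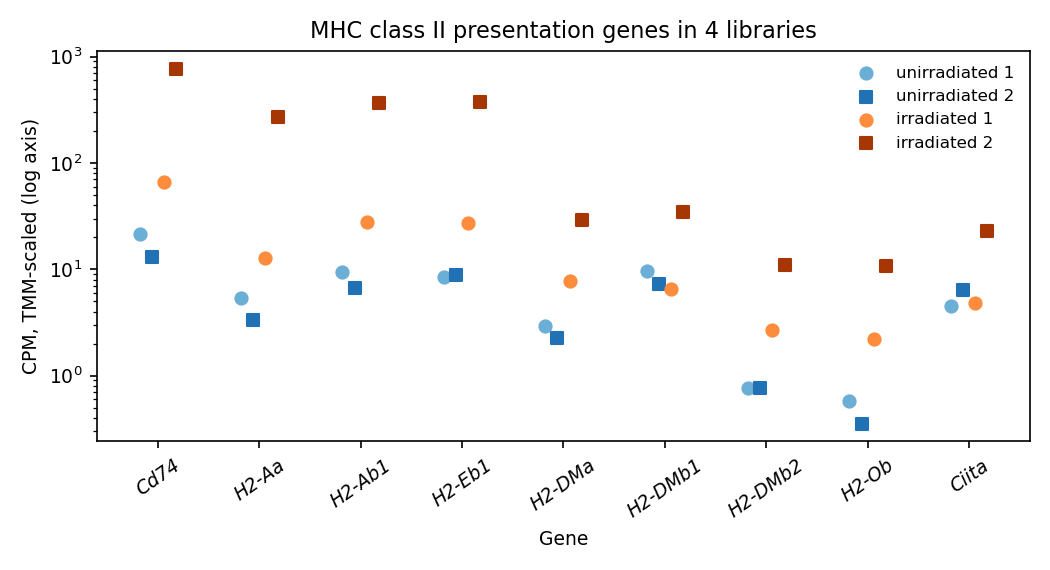
Level of each of the 9 genes in each library, as TMM-scaled CPM on a log axis, with 1 point per library. Irradiated 2 is the highest point for every gene, and irradiated 1 lies above both unirradiated points except for H2-DMb1 and Ciita.

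Cd74 was the most abundant. It was at 21.4 and 13.0 CPM without radiation, 66.3 CPM in irradiated 1 and 773 CPM in irradiated 2. Irradiated 1 was thus 3.86-fold and irradiated 2 44.9-fold over the unirradiated mean, and the groups did not overlap. The group means were 419 ± 499 CPM and 17.2 ± 5.97 CPM (SD, n = 2 each), so the spread of the irradiated pair was larger than its mean. In the edgeR quasi-likelihood fit the log2 fold change of Cd74 was 4.60 (SE 1.22, adjusted p = 0.489).

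The classical chains had the same order of libraries as the invariant chain, except that the unirradiated pair was level for H2-Eb1. H2-Aa, the alpha chain of I-A, was at 5.39 and 3.36 CPM without radiation, 12.8 CPM in irradiated 1 and 268 CPM in irradiated 2. H2-Ab1, its beta chain partner, was at 9.43 and 6.66 CPM, then 28.0 and 362 CPM. H2-Eb1, the beta chain of I-E, was at 8.52 and 8.91 CPM, then 27.1 and 374 CPM. The 3 genes stood at like multiples of their unirradiated mean in irradiated 1, between 2.93-fold for H2-Aa and 3.48-fold for H2-Ab1, and at 43.0-fold to 61.2-fold in irradiated 2. H2-Aa had the largest step between the irradiated libraries of all 9 genes, 20.9-fold. C57BL/6 mice carry the b haplotype, in which the alpha chain gene of I-E is defective, so H2-Eb1 RNA in this strain yields no I-E dimer on the cell surface.

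The peptide exchange genes differed among themselves. H2-DMa, the alpha chain of H2-DM, was at 2.94 and 2.24 CPM without radiation, 7.82 CPM in irradiated 1 and 29.3 CPM in irradiated 2. H2-DMb2, a beta chain gene, was at 0.770 and 0.767 CPM, then 2.67 and 10.98 CPM. In irradiated 1 they stood over the unirradiated mean at 3.02-fold and 3.48-fold. H2-DMb1, the other beta chain gene, was at 9.67 and 7.20 CPM, then 6.51 and 34.4 CPM. It was therefore lowest in irradiated 1 and highest in irradiated 2, and its groups overlapped in range. H2-Ob, the beta chain of the H2-DM inhibitor H2-O, was the scarcest, at 0.577 and 0.354 CPM, then 2.22 and 10.8 CPM, from 12, 6, 44 and 202 counts. The irradiated libraries stood above the unirradiated ones for H2-Ob, which reached the count filter only with their help; the other 8 genes reached it in the unirradiated libraries alone.

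H2-DMb2 held a larger share of the H2-DM beta chain counts in the irradiated libraries. H2-DMb2 made up 7.37% of the counts of the pair in unirradiated 1 (exact 95% binomial interval 4.27 to 11.7%, 217 counts). Its share was 9.63% in unirradiated 2 (5.23 to 15.9%, 135 counts). In irradiated 1 the share was 29.1% (22.6 to 36.3%, 182 counts) and in irradiated 2 24.2% (21.4 to 27.2%, 851 counts). No interval of an irradiated library reached into one of an unirradiated library, and the irradiated libraries lay close to each other although their H2-DMb2 levels differed 4.11-fold. The intervals cover counting error only, and a two-sided exact permutation test of 2 against 2 libraries cannot go below p = 0.333. The genes are near copies: 22.7% of the 50-base words in H2-DMb1 transcripts (GENCODE M21) also occur in H2-DMb2, and 21.2% of those of H2-DMb2 in H2-DMb1, so counts of either depend on how reads in shared stretches were assigned. Their promoter windows above carry the core and the Y box at the same spacing, although the H2-DMb2 window lies inside the counted gene.

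**Figure D2:**
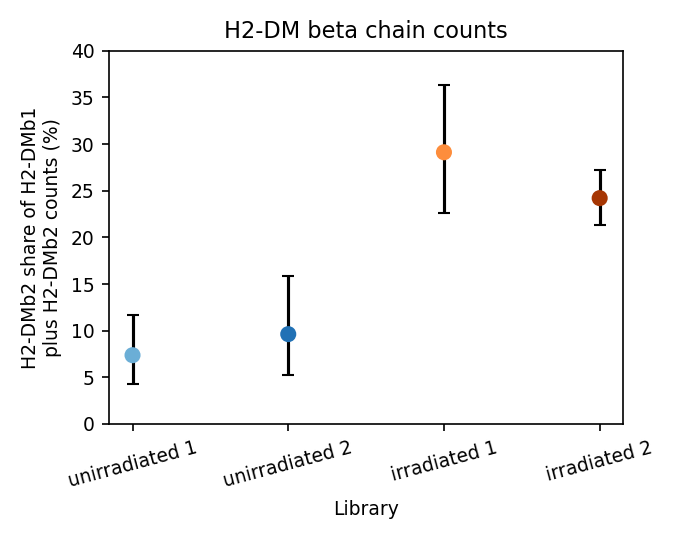
Share of H2-DMb2 in the summed counts of H2-DMb1 and H2-DMb2 per library, in percent, with exact 95% binomial intervals as bars. The unirradiated shares are 7.37% and 9.63%, the irradiated ones 29.1% and 24.2%.

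Ciita, the gene of the master coactivator, stood above the unirradiated pair in irradiated 2 and not in irradiated 1. It was at 4.48 and 6.37 CPM without radiation, 4.79 CPM in irradiated 1 and 22.8 CPM in irradiated 2. Irradiated 1 lay between the unirradiated libraries, where Cd74 and the 3 classical chains were already 2.93-fold to 3.86-fold higher. In irradiated 2 Ciita was 4.21-fold over the unirradiated mean, less than any of the 9 genes but H2-DMb1 with 4.08-fold. Ciita exons share 3.45% of their bases with Dexi on the other strand and H2-DMa exons 10.4% with Brd2, and strand was not kept in these libraries, so reads there cannot be assigned to a gene.

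No member passed the test over all genes. By edgeR's quasi-likelihood test with Benjamini-Hochberg adjustment 0 of the 9 were called, as were 0 of all 15993 genes (0%), and the members' adjusted p ran from 0.489 to 0.692. At an unadjusted p under 0.05 the 7 genes that did not overlap between the groups were higher, against 6.82% of all genes. H2-Ob is 1 of the 7 and met the count filter only through the irradiated libraries, so its test is not independent of the filter. At a cutoff of 0.515 CPM, unirradiated 1 reached the filter for H2-Ob and unirradiated 2 did not. For the other 6 the unadjusted edgeR p ran from 0.00893 for H2-DMa to 0.0205 for H2-Aa. Their log2 fold changes ran from 2.84 for H2-DMa (SE 0.68) to 4.99 for H2-Aa (SE 1.49). H2-DMb1 and Ciita were at 1.27 (SE 0.77, adjusted p = 0.692) and 1.35 (SE 0.75, adjusted p = 0.656). DESeq2 called 5 members higher, against 2.73% of all genes: H2-DMa (adjusted p = 0.00133), H2-DMb2 (0.00832), Cd74 (0.0413), H2-Ab1 (0.0489) and, with the same limit, H2-Ob (0.0037). Its adjusted p was 0.058 for H2-Eb1 and 0.0636 for H2-Aa, and limma-voom called 0 members and 0 genes.

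The size of the difference rested on irradiated 2. Without irradiated 2 the edgeR fit gave log2 fold changes of 1.53 for H2-Aa to 2.21 for H2-Ob in the 7 genes and called all 7, against 12.6% of all genes called higher. H2-DMb1 and Ciita were at -0.38 and -0.17 there and were not called. Without irradiated 1 all 9 were called, against 14.4% of all genes, with 2.01 for H2-DMb1 to 5.90 for H2-Aa. Both fits borrow the spread of the unirradiated pair for the 1 irradiated library left, and that spread was far smaller than that of the irradiated pair. When all 27538 genes with a count were tested, edgeR called the 9 members higher, against 4.86% of those genes; the cause was not tested.

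Per kilobase of gene length, Cd74 ranked first and H2-Eb1 second in each library. Cd74 was at 15.2 and 9.20 CPM per kilobase without radiation and at 47.0 and 548 CPM per kilobase in irradiated 1 and 2. H2-DMb1 came next in the unirradiated libraries, at 6.51 and 4.85 CPM per kilobase, with H2-Ab1 overlapping it at 5.76 and 4.07. In irradiated 1 H2-DMb1 came after H2-Ab1, H2-Aa and H2-DMa, and in irradiated 2 after H2-Ab1 and H2-Aa. At the low end without radiation, Ciita at 0.469 and 0.668 CPM per kilobase stood just above H2-DMb2 at 0.450 and 0.448, and H2-Ob was last.

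The invariant and classical chains held a larger share of class II RNA in the irradiated libraries. Cd74, H2-Aa, H2-Ab1 and H2-Eb1 held 76.7% and 75.2% of the 9 genes' summed CPM per kilobase without radiation, 88.7% in irradiated 1 and 95.8% in irradiated 2. H2-DMb1 held 16.1% in each unirradiated library, 4.14% in irradiated 1 and 1.81% in irradiated 2. Ciita stood at 3.09% and 7.26% of the Cd74 level per kilobase without radiation and at 1.07% and 0.437% with it. By contrast Cd74 stood at 2.88 and 2.06 times the mean of the 3 classical chains without radiation and at 3.01 and 2.42 times in irradiated 1 and 2, so that ratio overlapped between the groups.

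**Figure D3:**
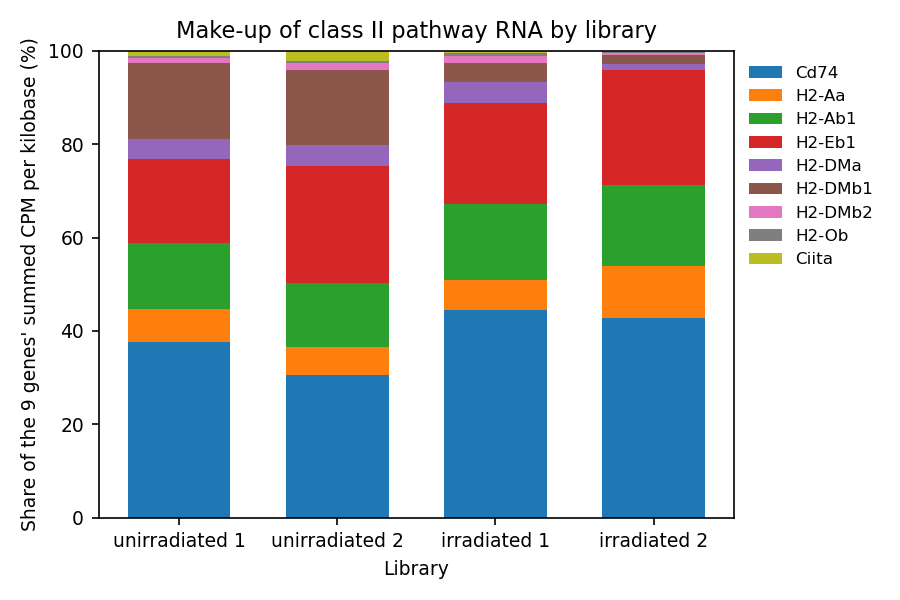
Share of each of the 9 genes in their summed CPM per kilobase, in percent, with 1 stacked bar per library. The H2-DMb1 band is 16.1% in both unirradiated libraries and 4.14% and 1.81% in irradiated 1 and 2.

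Of the 9 genes, 7 lie together on mouse chromosome 17 (mm10), between 34135182, the start of H2-DMa, and 34316199, the end of H2-Eb1. In the deposited table H2-DMb2 runs from 34143307 to 34151553, H2-DMb1 from 34153072 to 34160230, H2-Ob from 34238903 to 34245907, H2-Ab1 from 34263209 to 34269418 and H2-Aa from 34282744 to 34287827. Ciita lies on chromosome 16 from 10480059 to 10528418, and Cd74 on chromosome 18 from 60803848 to 60812646. The 6 other tested genes within the chromosome 17 span, among them the class I peptide loading genes Tap1, Tap2, Psmb8 and Psmb9, did not show the step between irradiated libraries. Their median log2 difference from the unirradiated mean was 0.44 in irradiated 1 and 0.42 in irradiated 2, and the highest was 1.26 and 1.27. The 9 members had medians of 1.63 and 4.28, against -0.003 and 0.004 over all tested genes.

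Of the endosomal processing genes, the protease genes Ctss and Lgmn were higher in each irradiated library than in either unirradiated one. Cathepsin S (Ctss), the protease that makes CLIP in antigen-presenting cells, was at 4.62 and 4.19 CPM without radiation, 16.7 CPM in irradiated 1 and 148 CPM in irradiated 2. It thus had the pattern of Cd74 (log2 fold change 4.22, SE 1.09, adjusted p = 0.489 by edgeR). The legumain gene Lgmn was at 16.8 and 16.9 CPM, then 23.9 and 102 CPM. Ifi30, the thiol reductase that opens disulfide bonds in endosomes, was already present at 78.7 and 72.0 CPM and stood at 76.6 and 91.4 CPM, with overlapping groups. Cathepsin L (Ctsl), which serves in epithelium of the thymus, was at 276 and 259 CPM, then 288 and 269 CPM. Of the 8 processing genes 2 lay above and 1 below, against 20.3% and 20.0% of all tested genes, and 0 passed edgeR; irradiated 1 differed from the unirradiated mean by a median of 0.0081 (log2) and irradiated 2 by 0.23.

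The DNA-binding partners of CIITA were present in all libraries at like levels. Rfx5 was at 32.4 and 39.1 CPM without radiation and 38.3 and 27.4 CPM with it, with overlap. Rfxap was at 30.4 and 27.8 CPM, then 24.5 and 25.6 CPM. Of the 7 factors, which also include Rfxank, Creb1, Nfya, Nfyb and Nfyc, 0 lay above and 2 below, against 20.3% and 20.0% of all tested genes, and 0 passed edgeR, with medians of -0.04 and -0.10.

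On the interferon gamma route to Ciita, the cytokine gene itself was nearly silent without radiation. Ifng had 2 counts in each unirradiated library, 6 in irradiated 1 and 99 in irradiated 2, or 5.28 CPM there. Socs1, the feedback inhibitor, was at 7.80 and 7.08 CPM, then 14.7 and 17.3 CPM (log2 fold change 1.11, SE 0.21, adjusted p = 0.489 by edgeR and 0.0138 by DESeq2). Socs1 stood at nearly the same level in irradiated 1 and 2, whereas Ciita differed 4.76-fold between them. The kinase gene Jak2 was at 46.5 and 50.8 CPM, then 58.2 and 72.3 CPM, and the receptor gene Ifngr1 at 37.5 and 33.4 CPM, then 37.6 and 59.3 CPM. Irf1, a factor that acts on the Ciita promoter, was abundant and lay lower, at 697 and 689 CPM, then 671 and 574 CPM. Of the 9 genes of the route 8 were tested, of which 5 lay above and 2 below, against 20.3% and 20.0% of all tested genes, and 0 passed edgeR; Ifng, not tested, also lay above.

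H2-Oa, March1 and the costimulatory gene Cd86 were near 0 in all libraries but irradiated 2, and Cd40 was low in those libraries. H2-Oa, the alpha chain partner of H2-Ob, had 2, 0, 1 and 55 counts in unirradiated 1, unirradiated 2, irradiated 1 and irradiated 2, so H2-Ob RNA in irradiated 1 came with 1 H2-Oa count. The costimulatory gene Cd40 was at 0.818 and 0.354 CPM, then 0.202 and 6.45 CPM, from 17, 6, 4 and 121 counts. Cd86, another costimulatory gene, had 5, 0, 8 and 86 counts. The ligase genes March1 and March8, which remove class II from the surface, stand in the deposited table under dates and were matched by gene ID; March1 had 5, 4, 7 and 118 counts, and March8 was at 78.1 and 80.0 CPM, then 64.9 and 77.2 CPM.

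Markers of leukocytes were higher alongside the class II genes. All 8 pan-leukocyte markers (7 of them tested), among them Ptprc, which encodes the CD45 used in the sort, lay above in both irradiated libraries, against 20.3% of all tested genes. Their summed level was 14.1 and 13.4 CPM without radiation, 48.4 CPM in irradiated 1 and 432 CPM in irradiated 2. The 9 class II genes summed to 4.48 and 3.63 times this level in the unirradiated libraries, 3.27 times in irradiated 1 and 4.37 times in irradiated 2, while their own sum differed 38.6-fold between the lowest and the highest library. No pan-leukocyte marker was at 0 in any library, and Ptprc was at 2.41 and 1.18 CPM, then 9.63 and 77.2 CPM. Their part in the class II result was not tested.

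Among single cell types, 10 of 12 macrophage markers lay above, against 20.3% of all tested genes. Their sums were 271 and 246 CPM, then 359.6 and 733 CPM, and the class II sum was 0.233 and 0.199 times, then 0.440 and 2.57 times, the macrophage sum. The complement gene C1qa was at 1.83 and 1.18 CPM, then 14.6 and 123 CPM, and the log2 differences of the list had medians of 2.46 and 5.58, far more than the 2.84-fold of its sum in irradiated 2. Fcgr1 and Itgam were at 0 in unirradiated 2. Of 10 B cell markers 9 lay above (8 of the 9 tested), with sums of 8.81 and 6.96 CPM, then 23.2 and 97.1 CPM, and medians of 1.32 and 3.51. The class II sum per B cell marker sum was 7.17 and 7.02, then 6.84 and 19.4, and per dendritic cell marker sum 10.9 and 5.83, then 12.3 and 21.7. Of 10 dendritic cell markers 6 lay above (3 of the 5 tested, against 20.3% of all tested genes), with sums of 5.77 and 8.37 CPM, then 12.9 and 86.9 CPM; Cd209a and Siglech were at 0 in both unirradiated libraries, and Xcr1, Clec9a and Ccr7 in 1 library each.

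Markers of T cells, endothelium and fibroblasts were also highest in irradiated 2. Of 8 T cell markers 6 lay above (5 of the 5 tested, against 20.3% of all tested genes), with sums of 3.51 and 3.72 CPM, then 8.98 and 79.2 CPM, and Cd3d was at 0 in unirradiated 2 and irradiated 1 and Cd28 in unirradiated 2. Of 8 endothelial markers 6 lay above, with sums of 20.7 and 18.5 CPM, then 36.3 and 614 CPM. The class II sum was 3.05 and 2.65 times the endothelial sum without radiation and 4.36 and 3.07 times it in irradiated 1 and 2, a range much like that against the pan-leukocyte sum. Of 8 fibroblast markers 6 lay above, with sums of 587 and 603 CPM, then 787 and 5720.2 CPM. Of the 8 luminal epithelial markers 1 lay above and 3 below, against 20.3% and 20.0% of all tested genes, with medians of -0.01 and -0.26. The class II genes were highest in the same library, and the part of these cell types in the class II result was not tested.

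**Figure D4:**
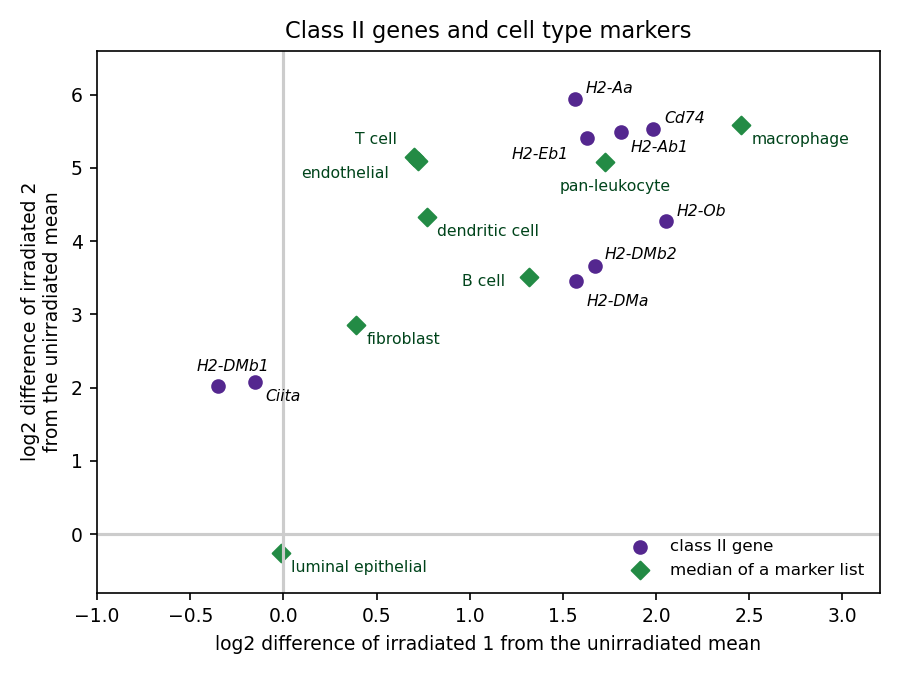
Log2 difference from the unirradiated mean in irradiated 1 (x axis) and irradiated 2 (y axis), for the 9 class II genes (circles) and the medians of 8 marker lists (diamonds). Cd74 (1.99 and 5.53), H2-Aa, H2-Ab1 and H2-Eb1 lie in the upper part with the pan-leukocyte (1.73 and 5.09) and macrophage (2.46 and 5.58) medians, the T cell and endothelial medians lie as high but further left, and H2-DMb1 and Ciita lie apart at -0.35 and 2.03 and at -0.15 and 2.07.

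**Figure D5:**
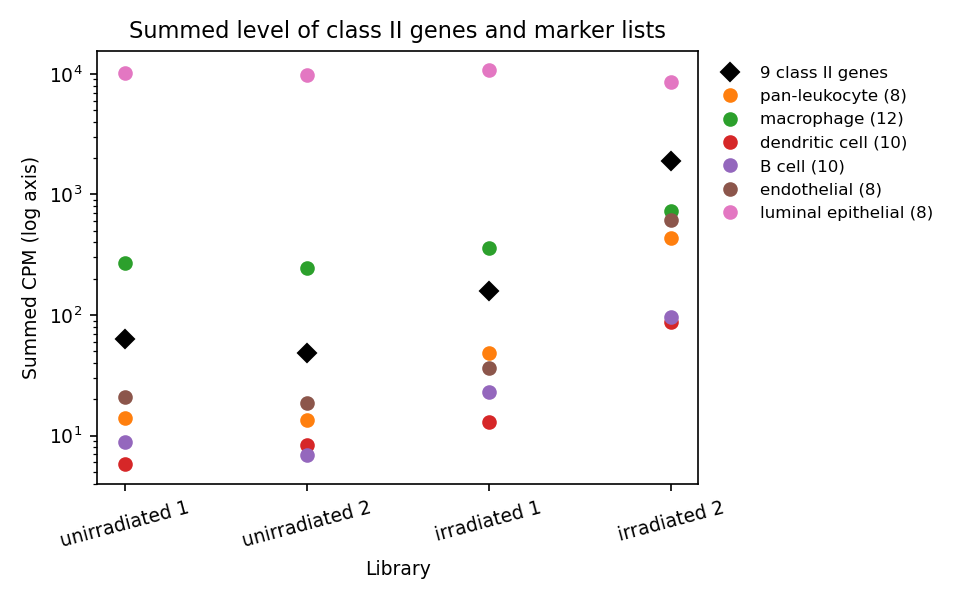
Summed CPM of the 9 class II genes (diamonds) and of 6 marker lists (circles) in each library, on a log axis, with the number of genes in brackets. The class II sum of 63.2, 48.8, 158 and 1885 CPM stays at 3.27 to 4.48 times the pan-leukocyte sum.

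The genes most like the class II group across the 4 libraries were sought among 12323 tested genes outside it. These had an average log2 CPM of at least 1 and no predicted or clone-type symbol. Likeness was the Euclidean distance between a gene's log2 CPM, centred on the unirradiated mean, and the median profile of the 9. That profile was at 1.63 in irradiated 1 and 4.28 in irradiated 2. Cd74, H2-Aa, H2-Ab1 and H2-Eb1 stood higher in irradiated 2, at 5.41 to 5.94, and likeness to them alone was not measured. The closest were Il7r (distance 0.18), Depp1 (0.23), Tm6sf1 (0.28), Cd52 (0.29), Il16 (0.29) and Fgd2 (0.29). Il7r encodes a receptor of lymphocytes and was at 0.481 and 0.295 CPM, then 1.46 and 8.42 CPM. Cd52, a lymphocyte surface gene that is also on the pan-leukocyte list, was at 1.40 and 0.944 CPM, then 4.24 and 28.5 CPM. Depp1 was the most abundant of the 6, at 3.95 and 3.66 CPM, then 12.3 and 77.1 CPM.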

How the data were processed

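Libraries were prepared from poly(A) RNA without strand marking, per the labels' protocols. The deposited values are raw counts for each gene, beside its length; 3 single tables matched the joint table at all 54532 genes. STAR 2.5, HTSeq 0.6.1, DESeq2 and mm10 are named in the submitters' processing notes; annotation release and counting options: not given in the sources used here. Other units were computed from the counts. In edgeR 4.0.16 (R 4.3.3), genes passing filterByExpr (minimum count 10, minimum total 15) were scaled by TMM and tested with the two-sided quasi-likelihood test, Benjamini-Hochberg adjusted over 15993 genes, threshold 0.05. SEs are the log2 fold change over the root of F; log2 CPM used a prior count of 2. The code was tested on simulated counts. Alternatives were other scalings and filters, a replicate block, each library left out, limma-voom (3.58.1) and DESeq2 (1.42.0). Members, gene lists and naming rule were chosen with earlier results of these data known. The rule names all members, H2-Oa, Ctss, Ifi30, Rfx5, Irf1 and 6 further pathway genes with the smallest p, the most abundant markers and 6 similar genes; other named genes were added after their values were seen, and some genes it covers are not reported here. A gene is said to lie above where its lower irradiated value exceeds its higher unirradiated value, and below in the opposite case.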

Additional observations from a re-analysis of the deposited data

How the results depend on the processing

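Counts of genes past the threshold depended on the fit. Against 0 higher and 0 lower, edgeR called 1338 and 105 with no filter and 2 and 0 with the replicate number as a block; DESeq2 called 437 and 56. With each library left out the counts ran from 0 to 2300 higher and from 0 to 2147 lower. Members called higher were 9 with no filter, 5 by DESeq2, and 0 to 9 with a library left out; under the other alternatives they were 0, the replicate block included. The causes were not tested. The replicate numbers share no stated animal or batch, and the deviations of same-numbered libraries correlated at -0.0992 across genes, so the block is given here only. With DESeq2 size factors, upper-quartile scaling, library size alone, no filter, the stricter filter (CPM above 1 in 2 libraries), the block, limma-voom and DESeq2, each member kept its direction. Signs turned only with a library left out: H2-DMb1 ran from -0.38 to 2.01, Ciita from -0.17 to 2.08, Cd40 from -1.54 to 3.40 and Rfx5 from -0.38 to 0.10. Among the 9 members, depth limits H2-Ob and H2-DMb2, which had 16 counts or fewer in each unirradiated library; several pathway genes had fewer still.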

Other observations

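H2-Ea-ps, the alpha chain pseudogene of I-E, had 1, 0, 7 and 0 counts in unirradiated 1, unirradiated 2, irradiated 1 and irradiated 2. The library with the highest level of every other class II chain was thus at 0 for it, which allows up to 0.16 CPM (3 counts, counting error only), while H2-Eb1 stood at 374 CPM there.

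H2-Eb2, a class II beta gene next to H2-Eb1 with the same pair of promoter boxes, had 4, 1, 2 and 42 counts. In irradiated 1, where H2-Eb1 was 3.12-fold over the unirradiated mean, it was at 0.101 CPM against 0.192 and 0.0590 CPM in the unirradiated libraries.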
